A study of Mus musculus with 98 samples.

Results

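The constitutive proteasome subunits are the products of the Psma, Psmb, Psmc and Psmd genes, without the inducible subunits Psmb8, Psmb9 and Psmb10. Members were the probe sets whose single symbol starts with one of these 4 stems followed by a digit. The rule found 65 of 22626 probe sets, which stand for 36 of 12393 genes. Of these, Psmc3ip is a factor of meiotic recombination and no subunit of the proteasome, and Psma8 is the testis form of an alpha subunit. In blood 50 member probe sets of 33 genes were bright enough to be tested, and in spleen 54 of 35 genes. Psma8 failed the brightness filter in both tissues, and Psmd7 and Psmd10 failed it in blood.

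The proteasome is the enzyme complex that degrades proteins tagged with ubiquitin. Its barrel-shaped core is built from outer rings of alpha subunits (Psma genes) and inner rings of beta subunits (Psmb genes), of which Psmb5, Psmb6 and Psmb7 carry the proteolytic sites. A regulatory particle caps the core. Its base holds a ring of ATPases (Psmc genes) that unfold substrates, and its lid holds Psmd14, the enzyme that removes ubiquitin. In immune cells, interferon-gamma induces Psmb8, Psmb9 and Psmb10, which replace the 3 catalytic subunits and change the peptides made for antigen presentation. The transcription factor NRF1 (gene Nfe2l1) raises subunit genes together when the proteasome is impaired.

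RNA was measured on 98 Affymetrix arrays of mouse blood leukocytes (64 arrays) and spleen (34 arrays) from 3 models: a burn, an infusion of the bacterial endotoxin lipopolysaccharide (LPS), and trauma-hemorrhage. Titles carry a letter, which the blood labels give as injury or infusion (E) or sham treatment (A). They also carry a code, c or x, which the labels do not explain. The words sham, injured and infused below follow the letter. Here c and x are compared under those names. Every spleen title has the letter E. Burn blood is made up of sham arrays (5 coded c, 4 coded x) and injured arrays (6 c, 5 x). LPS blood holds 6 c and 5 x sham arrays and as many infused ones, and trauma-hemorrhage blood 5 c and 5 x sham arrays beside 6 c and 6 x injured ones. Burn spleen has 5 c against 6 x arrays, LPS spleen 6 against 6, and trauma-hemorrhage spleen 6 against 5. Burn spleen is labelled as leukocytes of the spleen and the other spleen sets as spleen, and the LPS spleen titles carry a version mark. Strain, sex, age and time after injury are not given in the sources used here. Whether the arrays of a group are separate animals is not stated. The p-values therefore cover the spread among these arrays alone, and that spread may be technical. No leukocyte marker was at the lowest value of its set in all arrays of a code.

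The promoters of 4 subunits are shown first, because the results below turn on their genes. The 2 catalytic subunits among them were also chosen for a match to a motif given below, so these 4 promoters do not stand for all members. Each is the 250 bases before the annotated start, 5′ to 3′ on the gene's strand, from RefSeq on GRCm38.p6. Capitals mark TGACNNNGC, the core of the antioxidant response element that NRF1 and NRF2 bind, CCAAT, a site of NF-Y, and CCGGAAG, a site of the ETS family, each searched on both strands. Psmb4 has none of them.
Psmb5, chr14:54617996-54618245, minus strand: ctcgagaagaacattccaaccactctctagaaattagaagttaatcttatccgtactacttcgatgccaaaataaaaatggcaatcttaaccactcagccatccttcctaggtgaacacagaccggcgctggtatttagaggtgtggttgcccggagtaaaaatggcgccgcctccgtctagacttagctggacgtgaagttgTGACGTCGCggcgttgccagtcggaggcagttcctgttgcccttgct
Psmb6, chr11:70525107-70525356, plus strand: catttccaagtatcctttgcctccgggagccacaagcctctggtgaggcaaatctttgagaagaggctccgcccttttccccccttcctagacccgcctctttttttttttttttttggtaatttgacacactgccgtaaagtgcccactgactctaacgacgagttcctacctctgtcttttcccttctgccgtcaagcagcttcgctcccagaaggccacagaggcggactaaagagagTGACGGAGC
Psmb4, chr3:94886959-94887208, minus strand: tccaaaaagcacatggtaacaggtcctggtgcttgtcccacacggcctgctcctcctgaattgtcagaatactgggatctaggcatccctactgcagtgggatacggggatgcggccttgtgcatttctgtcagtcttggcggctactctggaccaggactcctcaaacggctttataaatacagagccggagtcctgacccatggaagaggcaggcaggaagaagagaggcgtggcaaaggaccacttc
Psmd6, chr14:14120946-14121195, minus strand: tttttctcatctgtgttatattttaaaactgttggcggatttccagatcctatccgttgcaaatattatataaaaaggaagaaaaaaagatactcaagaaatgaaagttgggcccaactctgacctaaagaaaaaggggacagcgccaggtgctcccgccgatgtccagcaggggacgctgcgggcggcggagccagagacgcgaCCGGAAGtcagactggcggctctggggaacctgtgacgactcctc
RefSeq's table held promoters of 29 of the 36 genes, in 31 entries, and that of the catalytic subunit Psmb7 was not among them. TGACNNNGC was found before 5 genes (Psmb5, Psmb6, Psmc6, Psmd12 and Psmd9), which is 16.1% of the entries, beside 10.2% of all 32851 promoters and 11.3% of the 12567 whose genes are on the array. Its first base lay 9 bases before the start in Psmb6 and 47 bases before it in Psmb5. CCGGAAG was found in 11 of the 31 entries, which stand for 10 genes, Psmc3ip among them. That is 35.5% of the entries beside 6.91% of all promoters and 10.9% of those on the array. GGGCGG, the GC box of Sp1, was in 54.8% of the entries against 51.3% of the promoters on the array, and CCAAT in 38.7% against 34.7%. TGACGTCA, the full cyclic AMP response element, was in 0 of the entries and in 2.12% of the promoters on the array. A match is a string of letters, not a measured site.

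In trauma-hemorrhage blood, x arrays had higher levels of most subunits than c arrays. Of 33 genes tested, 25 were higher and 2 lower (adjusted p at or under 0.05), beside 20.7% of all genes higher and 32% lower. The median difference over the member genes was 0.55 log2, against -0.05 over all genes. Counted by probe set, 34 of 50 members were higher and 4 lower, against 21.3% and 30.5% of all probe sets. In 9 of the 34, every x array lay above every c array after normalisation, as did 1.77% of all probe sets. The mean log2 level of the member genes ran from 7.71 to 8.10 in c arrays and from 8.14 to 8.51 in x arrays, without overlap. In bulk RNA, fewer cells of a type and less RNA per cell cannot be told apart.

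**Figure D1:**
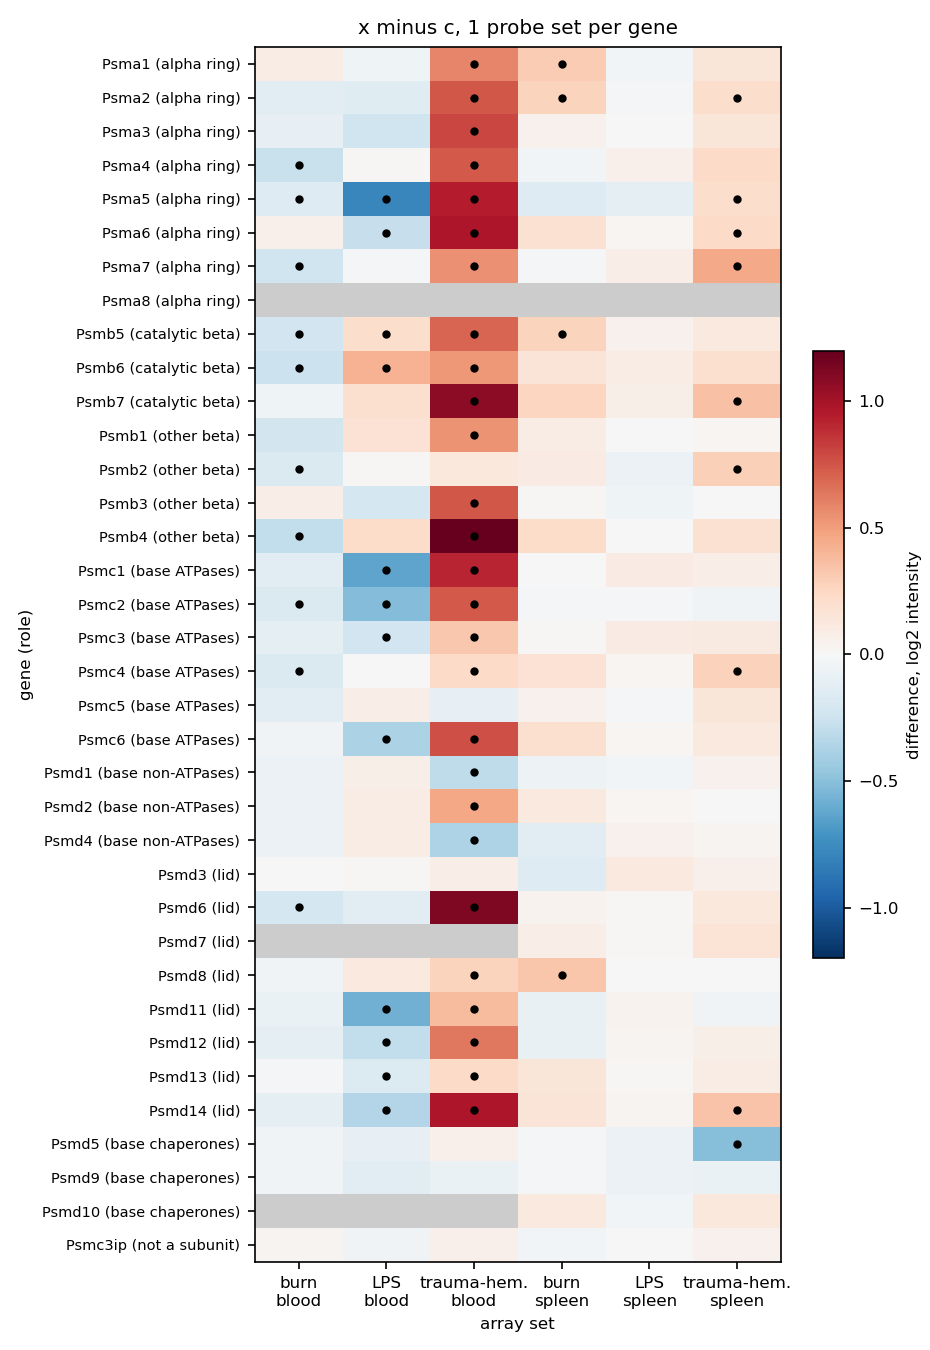
Differences in log2 intensity between x and c arrays (colour) for each member gene (rows, grouped by role) in the 6 array sets (columns); black dots mark differences with an adjusted p at or under 0.05 and grey cells were too dim to test. In trauma-hemorrhage blood 25 of 33 genes are higher in x, while burn blood has 10 lower and LPS spleen has 0 called.

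All 7 alpha subunits tested were higher in x, by 0.55 to 0.97 log2 (median 0.74). Psma6 had deposited intensities of 190.8 to 427.4 in c arrays and 447.0 to 851.2 in x arrays, which did not overlap. Its difference was 0.97 log2 (SE 0.10, adjusted p = 1.5e-07, 11 c and 11 x arrays). Psma5 ran from 199.4 to 458.5 in c and from 395.6 to 963.0 in x, and its difference was 0.94 log2 (SE 0.12, adjusted p = 2.9e-06). One c array of letter E reached into the x range. The smallest rise of the ring was that of Psma7, at 0.55 log2 (SE 0.07, adjusted p = 3.35e-06).

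All 3 catalytic subunits were higher. Psmb7, the trypsin-like site, had a median of 131 in c (103.8 to 173.2) and of 284 in x (227.7 to 383.8), so that the lowest x array stood above the highest c array. The difference was 1.07 log2 (SE 0.08, adjusted p = 8.6e-09). Psmb5, the chymotrypsin-like site that proteasome inhibitors target, had a median of 94.9 in c (73.1 to 98.9) and 143 in x (117 to 225), again without overlap. Its difference was 0.70 log2 (SE 0.09, adjusted p = 3.5e-06). Psmb6, the caspase-like site, ran from 80.1 to 141.4 in c and from 128.0 to 193.2 in x, with 2 c arrays inside the x range, and rose by 0.52 log2 (SE 0.08, adjusted p = 3.6e-05).

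Of the 4 other beta subunits, Psmb1, Psmb3 and Psmb4 were higher. Psmb4 had the largest difference with 1 probe set per gene: a median of 174 in c (158.7 to 294.7) and 493 in x (371.5 to 881.6), without overlap, or 1.20 log2 (2.29-fold, SE 0.10, adjusted p = 1.4e-08). Psmb2 differed by 0.13 log2 (SE 0.07, adjusted p = 0.11) and was not called, but it was called at 0.33 log2 when intensities were used as deposited.

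**Figure D2:**
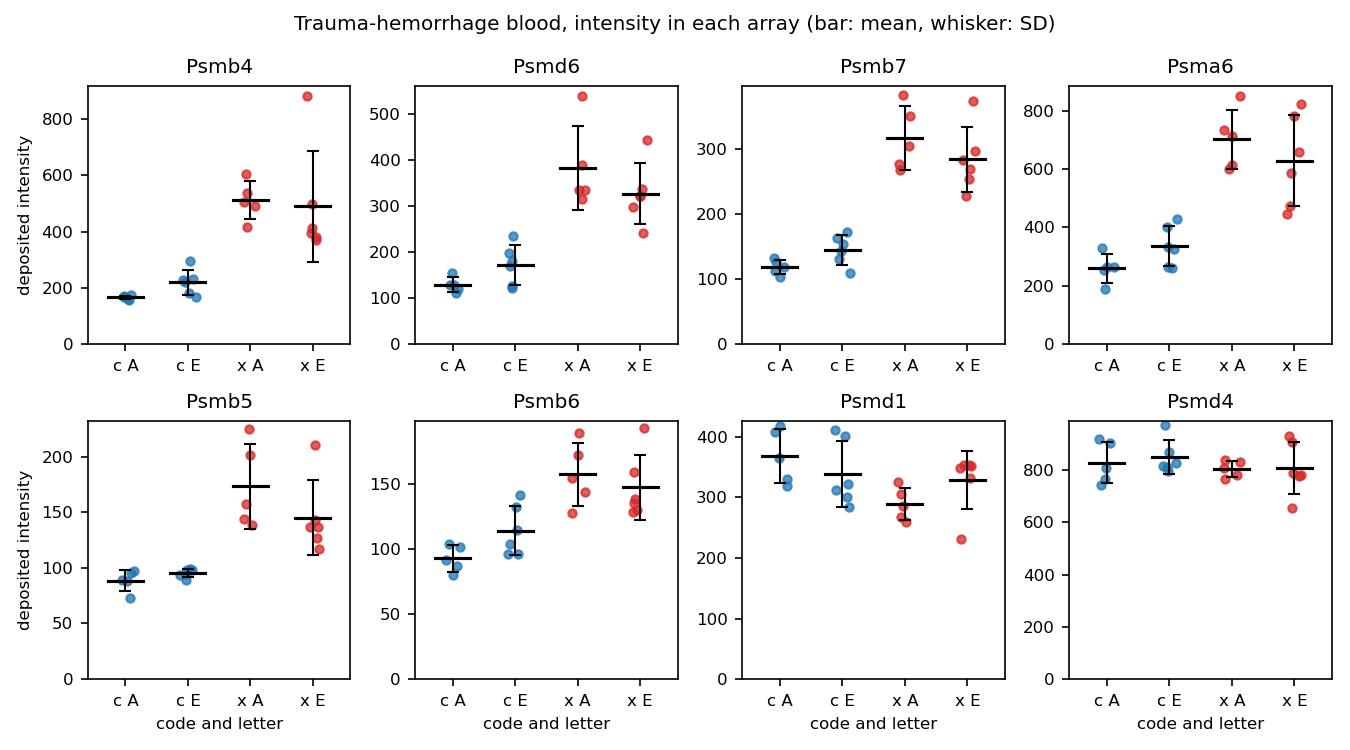
Deposited intensity (linear axis from 0) of 8 subunits in each trauma-hemorrhage blood array, by code and letter; bars are means and whiskers SD. For Psmb4, Psmd6, Psmb7, Psma6 and Psmb5 the lowest x array lies above the highest c array, while the Psmd1 and Psmd4 ranges overlap.

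In the base, 5 of 6 ATPases were higher, led by Psmc1 at 0.91 log2 (SE 0.14, adjusted p = 3.4e-05), Psmc6 at 0.78 and Psmc2 at 0.73. Psmc5 differed by -0.10 log2 (SE 0.05, adjusted p = 0.083). The 3 non-ATPase subunits of the base went different ways. Psmd2, a scaffold that binds ubiquitin-like domains, was higher by 0.47 log2 (SE 0.05, adjusted p = 4.2e-07). Psmd1, the other large scaffold, was lower by -0.30 log2 (SE 0.08, adjusted p = 0.0050), and Psmd4, a ubiquitin receptor, by -0.37 log2 (SE 0.085, adjusted p = 0.0011). Both falls depended on the scaling: with intensities as deposited they were -0.19 (adjusted p = 0.062) and -0.06 (adjusted p = 0.46). Psmd4 ran from 744.5 to 972.9 in c and from 654.5 to 929.0 in x as deposited, ranges that overlap almost wholly.

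That scaling also moved the array-wide split. After quantile normalisation 3378 probe sets were higher and 4825 lower in trauma-hemorrhage blood (41.2% of calls higher), and with intensities as deposited 4079 and 3718 (52.3%). Of the member genes, 26 were then higher and 0 lower, with a median of 0.66 log2.

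In the lid, 6 of 7 genes tested were higher. Psmd6 had the second largest difference of the 33 genes, after Psmb4: it ran from 112.2 to 234.8 in c and from 241.7 to 539.9 in x, or 1.11 log2 (SE 0.10, adjusted p = 5.8e-08). Psmd14, the deubiquitinase, was higher by 0.97 log2 (SE 0.13, adjusted p = 4.5e-06), and Psmd12 by 0.63. Psmd3 differed by 0.08 log2 and was not called. The base chaperones Psmd5 and Psmd9, which help assemble the ATPase ring and leave the finished particle, were not called (0.07 and -0.08 log2).

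**Figure D3:**
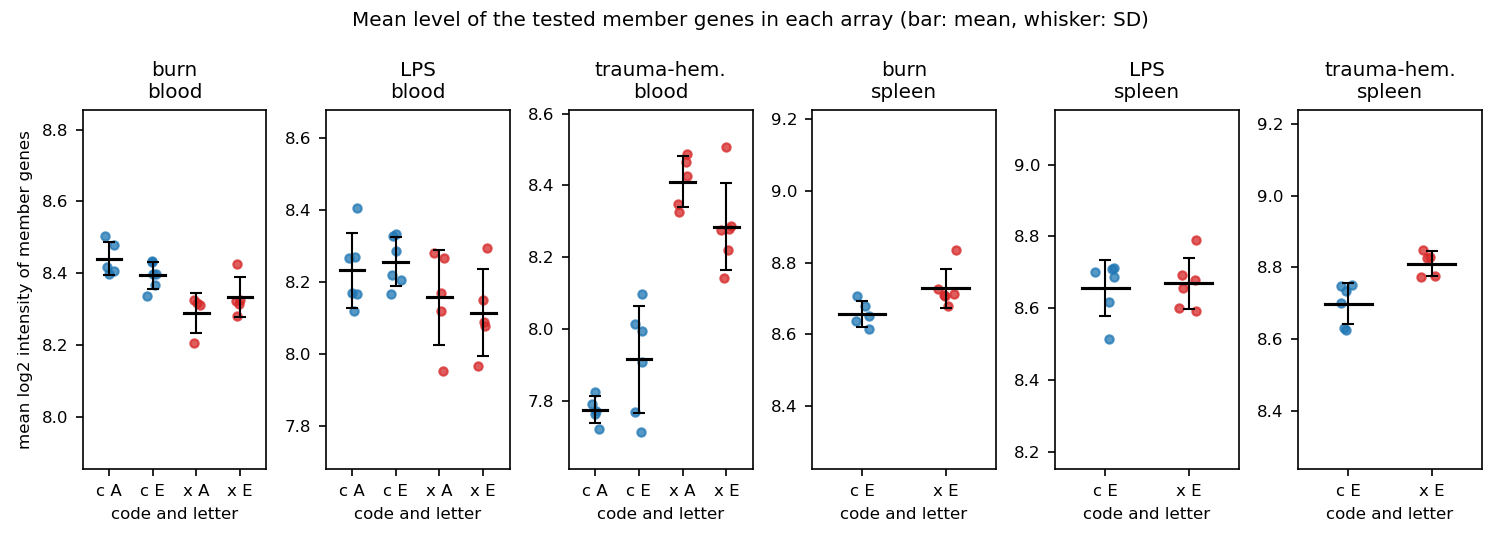
Mean log2 intensity of the tested member genes in each array, by code and letter, in the 6 array sets; each panel spans 1 log2, bars are means and whiskers SD. In both trauma-hemorrhage sets the x arrays lie above all c arrays, and in the other sets the codes overlap.

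A measure of RNA quality moved with the code in LPS and trauma-hemorrhage blood. The beta-actin controls give a log2 ratio of signal at the 3′ end over that at the 5′ end, which is lower for more intact RNA. It ran from 1.79 to 2.28 in c and from 0.97 to 1.65 in x arrays of trauma-hemorrhage blood. In LPS blood it was at least 1.49 in c and at most 1.27 in x, and in the other 4 sets the codes overlapped. With the ratio as a term in the fit, no member (0 of 50) was called in trauma-hemorrhage blood, 19 had an unadjusted limma p under 0.05, and 26 of all probe sets were called where 8203 had been. The differences of 27 of 33 member genes then still pointed up, with a median of 0.31 log2, while the median SE grew from 0.07 to 0.16. Psmb7 was at 0.79 log2 (adjusted p = 0.089), Psmb5 at 0.14 and Psmb6 at 0.18. In this set and in LPS blood the ratio and the code cannot be told apart.

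**Figure D4:**
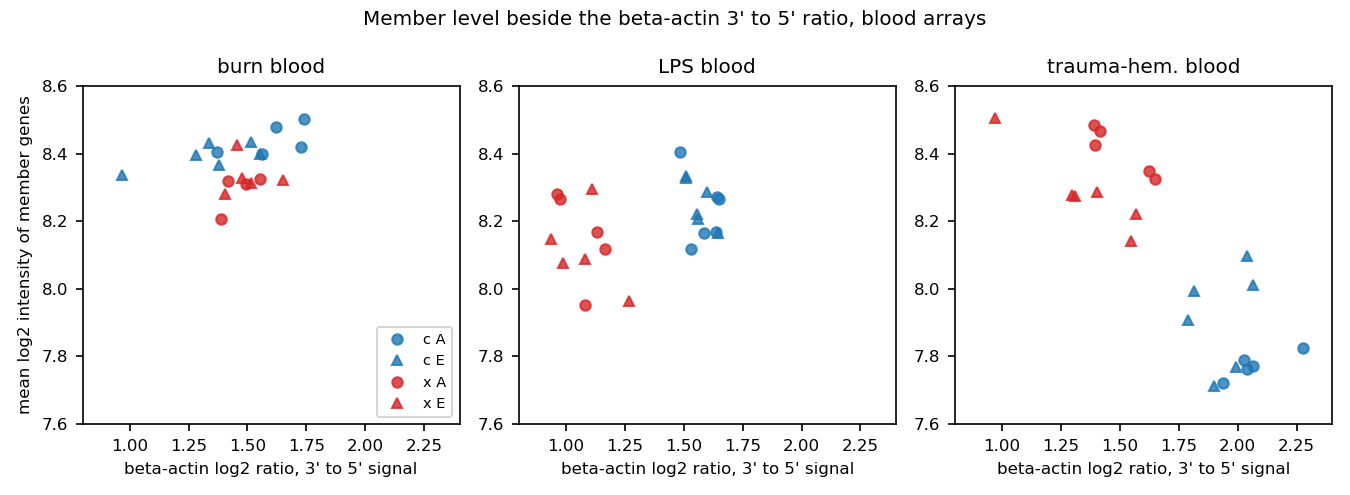
Mean log2 intensity of the member genes against the log2 ratio of 3′ to 5′ beta-actin signal in each blood array; circles are letter A and triangles letter E, blue c and red x. The codes do not overlap on the horizontal axis in LPS blood and trauma-hemorrhage blood, and they do in burn blood.

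The title numbers of trauma-hemorrhage blood form 2 runs, whose meaning the labels do not give. Taken alone, the first run had 22 member probe sets higher and 0 lower, beside 5.59% and 4.76% of all probe sets. The second had 33 and 5, beside 18.8% and 25.1%. Median differences over member probe sets were 0.40 and 0.43 log2, beside 0.39 with all arrays. Psmb7 was higher in both, by 0.97 and 1.15 log2.

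Blood arrays labelled as injured or infused (E) were compared with those labelled as sham (A). For x minus c, 2857, 4160 and 8203 of all probe sets had been called in burn, LPS and trauma-hemorrhage blood. Whether the letter or the code follows the injury was not tested. In each of the 3 blood models 0 member probe sets were called for E minus A by limma, beside 0% of all probe sets in burn and LPS blood and 0.0189% in trauma-hemorrhage blood. At an unadjusted p under 0.05 there were 2, 2 and 5 members of 50, against 5.64%, 5.3% and 10.3% of all probe sets. The interaction of code and letter also gave 0 calls among members, beside 0.0126% of all probe sets in burn blood and 0% in the other 2 models. In trauma-hemorrhage blood 19 of 50 members had an unadjusted interaction p under 0.05, where 7.85% of all probe sets had. In sham arrays alone 25 member genes were higher in x and 2 lower (15.4% and 22.6% of all genes), with a median of 0.79 log2. In injured arrays alone 24 were higher and 1 lower (11.5% and 17.8%), with a median of 0.37 log2. Psmc1 had the largest of these interactions, -0.76 log2 (SE 0.29, adjusted p = 0.56), and none passed the adjustment. In burn and LPS blood 5 and 1 members reached that unadjusted level, against 11.8% and 7.26% of all probe sets.

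In burn blood the subunits tended the other way by less. Of 33 genes 10 were lower and 0 higher, beside 10.7% and 7.3% of all genes. The median was -0.11 log2 over member genes and -0.01 over all. Psmb4 had a median of 547 in c (425.8 to 636.8) and 464 in x (352.7 to 484.0), with overlapping ranges, and was lower by -0.30 log2 (SE 0.06, adjusted p = 0.0024). Psma4 was lower by -0.26 (SE 0.06, adjusted p = 0.0020). Of the catalytic subunits, Psmb6 was lower by -0.26 (SE 0.05, adjusted p = 0.0017) and Psmb5 by -0.23 (SE 0.05, adjusted p = 0.0027), and Psmb7 differed by -0.05 without a call. Psma7, Psmd6, Psmc4, Psmc2, Psmb2 and Psma5 were lower by -0.23 to -0.16. Psmd6 lost its call in 8 of 20 fits that left out 1 array (highest adjusted p 0.093, without x array 2 of letter A).

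Within the sham arrays of burn blood (letter A) 8 member genes were lower, beside 9.52% of all genes. Within letter E 0 were, beside 2.57%, with 0 interactions called among members. In one run of title numbers 6 member probe sets were lower, beside 6.01% of all probe sets, and in the other 0, beside 0.303%. Psma5 turned to 0.034 log2 within letter E. Marker genes moved with the code here: 9 of 10 tested B cell markers were lower and 8 of 14 neutrophil markers higher in x. Of all genes 10.7% were lower and 7.3% higher. The summed neutrophil markers ran from 6128 to 56795 in c and from 22912 to 37861 in x. Without 2 c arrays of letter E that stood apart (arrays 4 and 5), 14 member probe sets were lower and 2 higher, where 11 and 0 had been, beside 15% and 11.8% of all probe sets in that fit. The part of cell make-up in the subunits' differences was not tested.

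In LPS blood more subunits were lower than higher. Of 33 genes 2 were higher and 10 lower, beside 13% and 12.9% of all genes. The count higher was thus under the share of all genes. Both genes called higher are catalytic. Psmb6 had a median of 137 in c (119.1 to 157.2) and 186 in x (160.2 to 236.5), without overlap, and was higher by 0.42 log2 (SE 0.06, adjusted p = 1.2e-05). Psmb5 was higher by 0.21 log2 (SE 0.075, adjusted p = 0.042), a call lost in 17 of 22 fits that left out 1 array (highest adjusted p 0.077, without x array 2 of letter E). Psmb7 differed by 0.19 log2 and was not called.

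The genes lower in LPS blood came from the alpha ring, the ATPases and the lid. Psma5 had a median of 722 in c (570.2 to 832.0) and 407 in x (226.3 to 628.5), with 1 x array inside the c range as deposited, and was lower by -0.78 log2 (SE 0.11, adjusted p = 1.9e-05). Its other 2 probe sets were at -0.13 and 0.12 log2 and were not called. Among 6 ATPases 4 were lower, Psmc1 by -0.63 (SE 0.12, adjusted p = 3.6e-04), Psmc2 by -0.52, Psmc6 by -0.37 and Psmc3 by -0.23. Among 7 lid genes 4 were lower, Psmd11 by -0.57 (SE 0.07, adjusted p = 6.7e-06), Psmd14 by -0.35, Psmd12 by -0.30 and Psmd13 by -0.17. Psma6 was lower by -0.28. Taken alone, the runs of title numbers gave 16 and 2 member probe sets lower, beside 13.9% and 1.29% of all probe sets. With the actin ratio as a term, 11 members were called in LPS blood where 18 had been, and 1750 of all probe sets (11%) where 4160 had been. In that fit Psmb5 turned to -0.47 and Psmb7 to -0.67 log2 (adjusted p = 0.034), and Psmb6 was at 0.14 without a call. The median over the member genes went from -0.05 to -0.45 log2, with 9 of 33 genes above 0. The median SE of the members grew from 0.07 to 0.22. The codes do not overlap in the ratio in LPS blood, so ratio and code cannot be told apart there.

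Probe sets of the same gene disagreed in both of these blood sets. In LPS blood Psmb4 was at 0.22 log2 on the probe set that represents it, without a call, and at -0.77 (SE 0.10, adjusted p = 1.1e-05) on its _x_at probe set, a suffix that marks probes that may also bind other transcripts. Psmc2 was at -0.52 on its _x_at probe set and at 0.13 on the other. In all 4 genes with both kinds tested (Psma6, Psmb4, Psmc2 and Psmd13), the _x_at value was the lower one in LPS blood, by -0.99 to -0.18 log2. It was also the lower one in all 4 in burn spleen (-0.28 to -0.06) and trauma-hemorrhage spleen (-0.14 to -0.02). For Psma6, Psmc2 and Psmd13 an _x_at probe set also represents the gene, so their calls in LPS blood are uncertain. The Psma6 call in trauma-hemorrhage spleen rests on an _x_at probe set too, and its other kind was at 0.28 there. In trauma-hemorrhage blood the 2 kinds lay on the same side of 0 in all 4 genes: Psmb4 was at 1.20 and 1.28.

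Psmd11, a lid subunit with 5 probe sets tested, was called in both directions, from -0.57 to 0.16 log2 in LPS blood and from -0.57 to 0.38 in trauma-hemorrhage blood. Its _s_at probe set, which represents it, had deposited intensities of 559.7 to 759.8 in c and 895.9 to 1519 in x in trauma-hemorrhage blood. One of the lower ones turned from -0.28 to 0.04 with intensities as deposited. Psma5 ran from -0.05 to 0.94 over its 3 probe sets there, and Psmb3 was at 0.75 on one and -0.01 on the other. Psmd4 was at -0.37, 0.06 and 0.19, the last a called rise. For these genes the direction or size rests on the probe set.

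**Figure D5:**
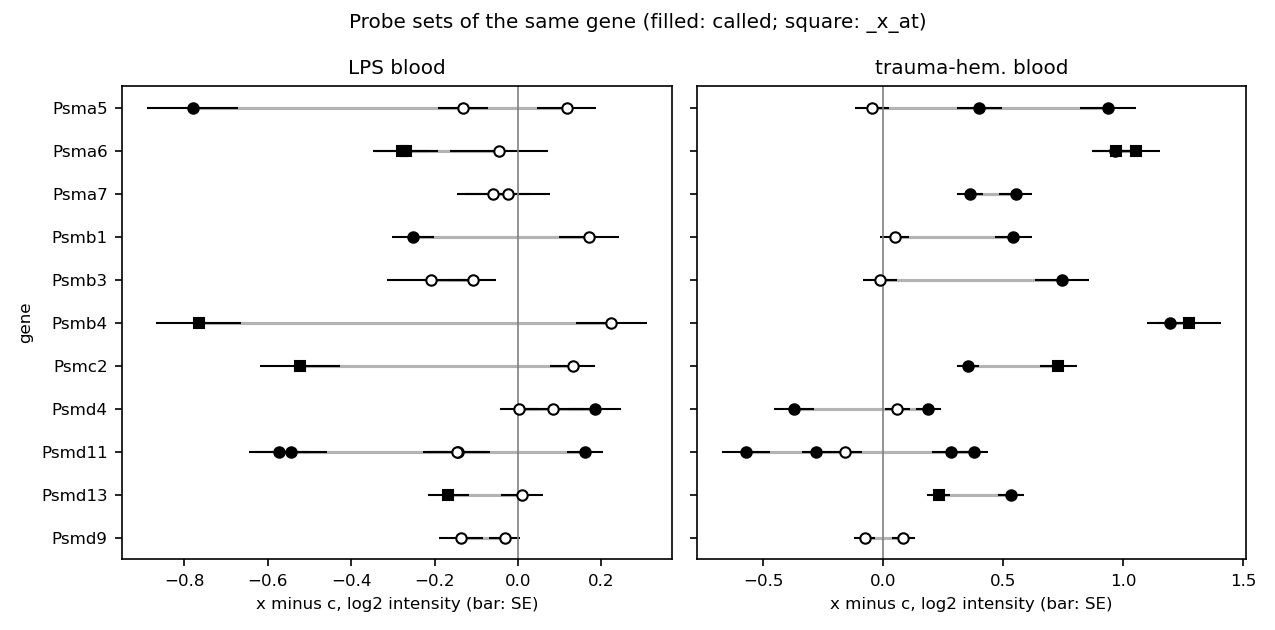
Difference between x and c (log2 intensity, bars are SE) of each tested probe set of genes with several, in LPS blood and trauma-hemorrhage blood; filled symbols have an adjusted p at or under 0.05 and squares are _x_at probe sets. The Psmb4 probe sets lie at -0.77 and 0.22 in LPS blood and at 1.28 and 1.20 in trauma-hemorrhage blood.

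In trauma-hemorrhage and LPS spleen the differences were smaller in size than in blood. In burn they were of similar size, from -0.16 to 0.33 log2 over the member genes in spleen and from -0.30 to 0.09 in blood. In trauma-hemorrhage spleen 8 of 35 genes were higher and 1 lower, beside 10.7% and 17.3% of all genes, with a median of 0.12 log2 against -0.01. Of the alpha ring 4 of 7 genes were higher. Psma7 was at 362.7, 369.8, 267.8, 388.3, 346.4 and 277.7 in the c arrays and at 415.9, 518.3, 409.9, 527.6 and 433.5 in the x arrays, all above c, a difference of 0.45 log2 (SE 0.09, adjusted p = 0.0016). Psmb7 was at 300.1 to 400.0 in c and at 438.2, 410.8, 478.9, 476.1 and 375.9 in x, so that 1 x array lay below the highest c array, and was higher by 0.35 log2 (SE 0.09, adjusted p = 0.0088). Psmd14 was higher by 0.34 (SE 0.08, adjusted p = 0.0061), Psmb2 by 0.29, Psmc4 by 0.28, Psma6 by 0.23, and Psma2 and Psma5 by 0.21 each.

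Several of these calls in trauma-hemorrhage spleen rested on single arrays. Without x array 4 the members called higher went from 12 to 6 probe sets, and 9.17% of all probe sets were then called higher. Psmc4 and Psma5 each lost the call in 7 of 11 fits that left out 1 array, with highest adjusted p-values of 0.10 and 0.087. Psma6 lost it in 3 of 11 and Psma2 in 2 of 11.

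The single gene lower in trauma-hemorrhage spleen was Psmd5, the chaperone that keeps the ATPase ring from joining the core early. It was at 444.9, 486.1, 418.6, 511.3, 472.2 and 444.1 in c and at 241.1, 343.1, 323.8, 318.3 and 321.4 in x. Every x array lay below every c array, and the difference was -0.51 log2 (SE 0.07, adjusted p = 9.6e-05). The call held in all 11 fits that left out 1 array. Markers moved with the code here as well. In x, 8 of 11 B cell and 8 of 14 T cell markers were lower, beside 17.3% of all genes. Of neutrophil markers 6 of 13 were higher, beside 10.7% of all genes. The part of the markers in the subunits' differences was not tested.

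In burn spleen 4 of 35 genes were higher and 0 lower, beside 9.02% and 8.44% of all genes. Psma1 was at 447.0, 486.2, 447.9, 462.8 and 441.8 in c and at 539.2 to 631.0 in x, without overlap, and was higher by 0.30 log2 (SE 0.06, adjusted p = 0.0036). Psma2 was at 680.0 to 837.7 in c and at 921.0 to 966.3 in x, a narrow range above all c arrays, and was higher by 0.26 (SE 0.06, adjusted p = 0.0059). Psmd8, a lid subunit, was higher by 0.33 (SE 0.09, adjusted p = 0.014). Psmb5 was higher by 0.27 (SE 0.08, adjusted p = 0.034), with its call lost in 7 of 11 fits that left out 1 array. In this set 8 of 14 T cell markers were higher and 8 of 11 B cell and of 11 monocyte and macrophage markers lower in x.

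In LPS spleen 0 members were called by limma, 2 of 54 member probe sets had an unadjusted p under 0.05 where 11.3% of all probe sets had, and 2.39% and 0.909% of all probe sets were called higher and lower. The differences of the 35 genes lay between -0.11 and 0.12 log2. Neutrophil markers were higher in x there (7 of 13).

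No gene was called in the same direction in 4 or more sets. Psma2 was higher in 3 (both trauma-hemorrhage sets and burn spleen) and Psmb5 in 3 (LPS blood, trauma-hemorrhage blood and burn spleen), and Psmb5 was lower in burn blood. In all, 18 genes were called in both directions over the 6 sets, and 7 of 36, Psma8 included, were called in none. Of the 8 genes higher in trauma-hemorrhage spleen, 7 were also among the 25 higher in its blood. Of the 10 lower in LPS blood all 10, and of the 10 lower in burn blood 9, were higher in trauma-hemorrhage blood. Burn and LPS blood shared 2 lower genes, Psma5 and Psmc2. As 25 of 33 genes tested were higher in trauma-hemorrhage blood, most of any list of members would be among them. Shared and opposite calls were not counted over all genes, so these overlaps have no background beside them.

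The difference between models was tested itself. Larger and smaller, here and below, refer to the signed value of x minus c, so that a deeper fall counts as smaller. The difference between codes was larger in trauma-hemorrhage than in burn blood for 26 of 33 genes and smaller for 1, Psmd4, beside 19.3% and 24.7% of all genes. The gap was widest for Psmb4, at 1.49 log2 (SE 0.12, adjusted p = 4.9e-14), and Psmd6, at 1.32 (SE 0.15, adjusted p = 1.6e-10). Against LPS blood it was larger for 23 genes and smaller for 3 (Psmc5, Psmd1 and Psmd4), beside 20.3% and 27.4% of all genes, with Psma5 at 1.72 log2 (SE 0.14, adjusted p = 2.6e-14) and Psmc1 at 1.55. Both comparisons use the same trauma-hemorrhage arrays. Burn and LPS blood differed for 10 genes, 5 larger in burn and 5 smaller, beside 9.11% and 11.2% of all genes. Psmb6 differed by -0.68 log2 (SE 0.10, adjusted p = 2.7e-07), and Psmb4 and Psmb5 by -0.52 and -0.44. Psma5, at 0.62, and Psmd11, at 0.49, led in the other direction.

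In spleen, trauma-hemorrhage differed from burn for 4 genes, 2 larger and 2 smaller (9.51% and 14.3% of all genes), and from LPS for 4, 3 larger and 1 smaller (4.86% and 7.72%). Psmd5 was lower in both (-0.49 and -0.45 log2) and Psma5 and Psma7 higher in both. Burn and LPS spleen differed for Psma2, at 0.28, and Psmd3, at -0.28 (4.91% of all genes larger and 4.5% smaller). Between tissues, on E arrays alone, the difference between codes was larger in blood than in spleen for 12 of 33 genes after trauma-hemorrhage and smaller for 0, beside 13.8% and 11.8% of all genes. Psmb4, at 0.76 log2 (SE 0.19, adjusted p = 0.0061), and Psmd6, at 0.70, led. In LPS the signed difference was smaller in blood for 4 genes (Psmc1, Psma5, Psmd11 and Psmc2) and larger for 0. Of all genes 5.18% were smaller and 3.82% larger. All 4 were called lower in LPS blood over both letters, so smaller stands here for a deeper fall. In burn 2 were smaller (Psmb5 and Psma2) and 0 larger, beside 1.76% and 1.63%.

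Of the inducible counterparts, all 3 were higher in trauma-hemorrhage blood and all 3 in its spleen, beside 20.7% and 10.7% of all genes. In blood Psmb8 was higher by 1.16 log2 (SE 0.17, adjusted p = 1.1e-05), Psmb10 by 0.51 and Psmb9 by 0.47, and in spleen by 0.67, 0.42 and 0.56. In burn blood Psmb8 and Psmb10 were lower, by -0.41 and -0.27, and in LPS blood Psmb9 and Psmb10 were higher, by 0.22 and 0.21. Psme1, a subunit of the activator cap that interferon induces, was higher in LPS blood (0.22), trauma-hemorrhage blood (0.58) and its spleen (0.48) and lower in burn blood (-0.31).

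Of the 4 activators and inhibitors tested, 2 were higher and 2 lower in trauma-hemorrhage blood, beside 20.7% and 32% of all genes. Psmf1, an inhibitor of the core, was lower there by -0.65 log2 (SE 0.07, adjusted p = 8.8e-07) and higher in LPS blood (0.36) and burn spleen (0.33). Psme3, the nuclear activator, was lower by -1.01 (SE 0.15, adjusted p = 1.3e-05) and higher in LPS blood by 0.78; it was chosen after its values were seen.

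Of the 13 assembly and bound factors tested in trauma-hemorrhage blood 5 were higher and 1 lower, beside 20.7% and 32% of all genes. Pomp, the chaperone that matures the core, was higher by 0.91 log2 (SE 0.10, adjusted p = 5.7e-07) and lower in burn and trauma-hemorrhage spleen (-0.25 and -0.27). Akirin2, which carries proteasomes into the nucleus, was higher there by 0.20 and lower in LPS blood (-0.22) and trauma-hemorrhage spleen (-0.31). Zfand5, which binds ubiquitin and the proteasome, was higher in burn blood (0.67), LPS blood (0.22) and burn spleen (0.20). Of the 9 shuttle receptors and p97 factors 4 were higher in trauma-hemorrhage blood and 0 lower, beside the same shares of all genes. In its spleen 0 were higher and 3 lower, beside 10.7% and 17.3% of all genes. Ubqln1, a shuttle for ubiquitinated proteins, went from 0.57 in blood to -0.60 in spleen and was at -0.23 in burn blood. Faf1 was lower in trauma-hemorrhage spleen (-0.55), burn blood (-0.17) and LPS blood (-0.14).

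Of the 8 genes of the NRF1 list tested, 2 were higher and 2 lower in trauma-hemorrhage blood, beside 20.7% and 32% of all genes. Nfe2l1 itself was called in 0 sets. Its relative Nfe2l2 (NRF2), the factor of the oxidative stress response, was higher in LPS blood (1.06 log2, SE 0.18, adjusted p = 1.2e-04), LPS spleen (0.63), trauma-hemorrhage blood (0.61) and its spleen (0.42). These are RNA levels. The activity of NRF1 and NRF2, and any part of theirs in the subunits' differences, was not tested. The genes of ubiquitin and its activating enzymes had no probe set with a single symbol and were not analysed here.

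Some leukocyte markers moved with the code in trauma-hemorrhage blood, where 20.7% of all genes were higher and 32% lower. Of 14 neutrophil markers 8 were higher and 2 lower, and their summed intensity ran from 11182 to 41057 in c and from 29782 to 86361 in x. Of 11 monocyte and macrophage markers 5 were higher and 2 lower, with sums of 4735 to 10580 in c and 11684 to 20437 in x, without overlap. Of 10 B cell markers 0 were higher and 4 lower, and of 9 erythroid markers 0 and 5. T cell markers were split, 3 each way of 13, as were NK cell markers, 2 each way of 10. Platelet markers were lower in 3 of 9, and dividing-cell markers higher in 2 and lower in 4 of 13. The T cell, NK cell and dividing-cell counts and that of lower platelet markers were not far from the shares of all genes. The part of the markers in the subunits' rise was not tested. In LPS blood 11 of 14 neutrophil and 6 of 9 platelet markers were higher in x, beside 13% of all genes.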

How the data were processed

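The deposited values are linear intensities per probe set and array. The sources used here do not say how the authors computed and scaled these intensities. Each array set has 1 lowest value (9.68 to 32.5), so levels of different sets were not compared. Array medians ran from 76.2 to 145. Precision is limited by how many arrays a group has. Left out were 64 control probe sets. Values were taken as log2(intensity + 16) and quantile normalized within each tissue. Probe sets under the 30th percentile of the mean were dropped, which left 15838 per tissue (13433 for tissue differences). The test of each probe set used limma 3.58.1 under R 4.3.3, with 1 term per group and a trended eBayes prior, two-sided, with Benjamini-Hochberg adjustment over all probe sets tested and a threshold of 0.05. In blood x minus c was averaged over letters. SE is of a log2 difference. For counts of genes, the brightest probe set over all arrays stood for its gene. Named were up to 4 members higher and 4 lower per comparison by size among those called, the catalytic subunits, members called in the same direction in 4 or more sets or in both directions, and other list genes called in 3 or more sets; others named are examples of counts. Members and lists were chosen with earlier results of these data known. In simulated data 200 of 15838 probe sets were changed, equal numbers by 0.5 and by 1 log2, with independent noise. For x minus c in trauma-hemorrhage blood 87% of the changes of 0.5 log2 and 99% of those of 1 log2 were recovered. In the data themselves 8203 were called there, so recovery may differ from the simulated one. Recovery of 0.5 log2 was 71% for x minus c in LPS spleen and in trauma-hemorrhage spleen, 49% for the interaction in trauma-hemorrhage blood and 37% for its difference between tissues, so small differences there can be missed. Symbols are those of the platform table: 20380 probe sets have 1, 691 several and 1555 none. Alternatives were other pseudocounts, scalings and filters, 1 probe set per symbol, array weights, robust variance, larger fits, single letters, title-number runs, the actin ratio, a 0.5 log2 threshold and each array left out.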

Additional observations from a re-analysis of the deposited data

Results flagged for a closer look

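The difference of x minus c between array sets passed the test of the difference itself for some member probe sets in each pairing. The counts are of member probe sets in either direction. The shares beside them are of all genes, larger and smaller in signed value, with 1 probe set each. Of 50 tested in blood, 37 differed between trauma-hemorrhage and burn (19.3% and 24.7%). Between trauma-hemorrhage and LPS blood 37 differed (20.3% and 27.4%), and between burn and LPS blood 14 (9.11% and 11.2%). In spleen, of 54 tested, the count was 5 between trauma-hemorrhage and burn (9.51% and 14.3%). It was 5 between trauma-hemorrhage and LPS (4.86% and 7.72%) and 2 between burn and LPS (4.91% and 4.5%). Between blood and spleen, of 48 tested, 2 differed for burn (1.63% and 1.76%). For LPS 7 did (3.82% and 5.18%), and for trauma-hemorrhage 17 (13.8% and 11.8%).

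Single arrays stood apart from the rest of their group by Dixon's criterion at the 95% level, which chance meets in about 1 group of 20. Of 72 groups tested over the member mean and the 3 catalytic subunits, 9 did. The mean log2 level of the member genes was 8.21 in 1 burn blood x array of letter A, with the nearest other at 8.31, and 8.83 in 1 burn spleen x array, with the nearest at 8.73. That burn spleen array also had Psmb5 at 8.93 log2. Psmb5 was at 7.55 in 1 LPS blood c array of letter A and at 7.92 in 1 trauma-hemorrhage blood x array of letter E. Psmb7 was at 8.67 in 1 burn blood c array of letter E. One LPS spleen c array was low for all 3 catalytic subunits, with Psmb5 at 6.65, Psmb6 at 8.44 and Psmb7 at 7.15 log2.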

How the results depend on the processing

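Counts here are of member probe sets called for x minus c, unless a difference between sets is named. The share of all probe sets called can also change with the setting and is mostly not given here. A moved count is therefore not shown to be particular to the members. With intensities as deposited, burn spleen had 9 higher and 0 lower, trauma-hemorrhage blood 1 lower and LPS blood 2 higher, burn and LPS spleen differed for 1, and burn blood and spleen for 1. Without the filter burn spleen had 2 lower. With 1 probe set per symbol, trauma-hemorrhage blood had 2 lower, burn spleen 0 lower, and LPS blood and spleen differed for 4. Array weights gave burn blood 2 higher and 17 lower and LPS blood 9 higher; burn and LPS blood then differed for 24, burn blood and spleen for 5 and LPS blood and spleen for 14. One fit per tissue gave burn blood 6 lower and burn spleen 0 lower. At a difference of at least 0.5 log2, trauma-hemorrhage blood had 1 lower, LPS blood 0 higher and 6 lower, burn blood 0 lower, burn spleen 0 higher and 0 lower, and trauma-hemorrhage spleen 0 higher. With the actin ratio as a term, trauma-hemorrhage blood had 0 higher and 0 lower, LPS blood 0 higher and burn spleen 0 lower. Letter A alone gave LPS blood 2 higher and 7 lower. Letter E alone gave it 1 higher and 8 lower, and burn blood 0 lower. Title-number runs alone and the burn arrays below were chosen after seeing the data. Run 1 gave trauma-hemorrhage blood 22 higher and 0 lower, LPS blood 2 higher and burn blood 6 lower; run 2 gave LPS blood 1 higher and 2 lower and burn blood 0 lower. Without c arrays 4 and 5 of letter E, burn blood had 2 higher and differed from burn spleen for 5. The smaller number of arrays or of probe sets is part of the letter, run and 1-per-symbol settings; for the others the cause was not tested.

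Among named members, 7 values changed sign. One probe set of Psmd11 was at 0.038 in trauma-hemorrhage blood as deposited, and Psma5 at 0.034 in burn blood on letter E alone. With the actin ratio, Psmb5 was at -0.47 and Psmb7 at -0.67 in LPS blood, and Psmc4 at -0.02, Psmd4 at 0.11 and a second probe set of Psma5 at -0.043 in trauma-hemorrhage blood. Over the other settings named members kept direction and side of the threshold in 2541 values, lost the call in 195 and gained it in 27; with 1 array left out these were 3174, 68 and 22, and 0 changed sign.

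Leaving out 1 array in turn, trauma-hemorrhage blood had 34 to 35 higher and 4 to 5 lower, its spleen 6 to 14 and 1 to 1, burn blood 0 to 0 and 10 to 13, burn spleen 3 (without c array 1) to 8 (without c array 2) and 0 to 2, LPS blood 2 to 8 (8 without c array 5 of letter A) and 14 to 16, and LPS spleen 0 to 0. Differences ran from 36 to 38 for trauma-hemorrhage against burn blood and against LPS blood, 12 to 16 for burn against LPS blood, 3 to 6, 4 to 7 and 0 to 4 for the same pairs in spleen, and 1 to 4, 5 to 12 (12 without LPS blood x array 5 of letter E) and 12 to 21 between tissues in burn, LPS and trauma-hemorrhage. Letter and interaction counts stayed at 0. No paired analysis was possible because the labels give the arrays no replicate numbers shared between codes. Probe sets near the floor of a set have compressed differences.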
